A study of Mus musculus with 12 samples.

Results

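The transcription factors Fezf2, Bcl11b, Tbr1, Sox5, Cux1, Cux2, Pou3f2, Tle4 and Zfpm2, which mark and specify subtypes of cortical projection neurons, were followed through the 25 clusters of nuclei of the embryonic mouse cortex. They are 9 of the 23513 genes in the count tables and were chosen by name, as known factors of these subtypes. Earlier results of these data were known at that choice. For each gene, all transcript counts of a cluster were added up within each embryo, and the level was taken as CPM, the gene's count scaled to an equal total.

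Projection neurons (PN) are the excitatory neurons that send axons out of their cortical area. They are born in order from radial glial cells (RGCs) and intermediate progenitors (IPCs), the deep layers before the upper ones, and factors that repress each other separate neurons projecting below the cortex from callosal neurons, which cross to the other hemisphere. Fezf2, Bcl11b, Tbr1, Sox5, Tle4 and Zfpm2 are known from deep-layer neurons, whereas Cux1, Cux2 and Pou3f2 are known from upper-layer neurons and their progenitors.

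Cortices came from C57BL/6J embryos whose dams had received saline or ethanol (EtOH) by intraperitoneal injection, at 2.5 g/kg EtOH once daily for 6 days from embryonic day 8.5. The labels give day 14 for the collected tissue. Of the 5 saline embryos, S1-1 and S1-2 were litter mates of dam S1, and S2-1, S2-2 and S2-4 of dam S2. Of the 6 EtOH embryos, E1-1 and E1-2 were from dam E1, and the 4 named E2-1 to E2-4 from dam E2. Batch 1 took in the litters of S1 and E1, and batch 2 the remaining litters. Saline embryo S2-3 was not used here. With 2 dams per treatment, embryos of a litter share their mother, so the p-values below measure the spread between embryos and not between dams. Exceptions are fits with counts summed per dam, which rest on only 2 dams per treatment, and fits with dam as a random block.

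Each embryo gave 1 single nucleus RNA sequencing (snRNAseq) library, in which every captured RNA molecule carries a unique molecular identifier (UMI), and the tables held 50550 nuclei in all. Saline libraries held 44017566 to 83061737 UMIs and EtOH libraries 14078316 to 38034349, so values after EtOH rest on fewer counts. Between 1 and 18 barcode sequences were shared by any 2 libraries. The library labelled S2-4 stood apart from its group. Across the 8210 genes with a mean of at least 10 CPM in the summed PN, its log2 levels correlated with those of the EtOH libraries at r = 0.993 to 0.996 but with those of the other saline libraries at only 0.970 to 0.982. The median depth of S2-4, 6325 UMIs per nucleus, lay within the EtOH range of 4072 to 6911. The other saline libraries had 8365 to 9051. The part of depth in this likeness was not tested. The label of S2-4 was kept. The results called or near a call, the summed PN and the counts over clusters are given with and without this library.

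The authors' cluster names were used. The 8 PN clusters held 231 to 1084 CPM of 5 summed PN markers (Neurod2, Neurod6, Slc17a6, Slc17a7, Bhlhe22), against 55.2 to 159 CPM in the 7 interneuron clusters. The 2 IPC clusters, at 548 to 743 CPM, and the 3 other clusters, at up to 393 CPM, overlapped the PN range. The sum of 6 interneuron markers (Gad1, Gad2, Dlx1, Dlx2, Dlx5, Dlx6os1) reached 142 CPM at most among PN clusters, while no interneuron cluster fell under 1452 CPM. Fezf2 itself was used by the authors to name Clusters 4 and 16 as subcortical PN. The clusters were made from the same expression values over all embryos. Differences between clusters, and their agreement from embryo to embryo, are therefore in part built in.

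Upstream sequence is shown for 3 genes with opposite extremes in Cluster 4: Fezf2 and Sox5, highest there, and Cux2, lowest there. The RefSeq table of promoters (GRCm38.p6) held entries for 8 of the 9 genes, Zfpm2 being without one. The 250 bases before each start were searched on either strand for a T-box site (TCACAC), SOX sites (ACAAAG or ACAATG), the POU octamer (ATGCAAAT) and a CUX site (ATCGAT), whose letters do not overlap in the stretches shown. Stretches that GENCODE annotates as exon are left out, and capitals mark the matches.
Fezf2: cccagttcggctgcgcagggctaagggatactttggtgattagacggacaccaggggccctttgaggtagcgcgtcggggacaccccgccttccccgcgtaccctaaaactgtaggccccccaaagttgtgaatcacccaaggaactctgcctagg
Sox5: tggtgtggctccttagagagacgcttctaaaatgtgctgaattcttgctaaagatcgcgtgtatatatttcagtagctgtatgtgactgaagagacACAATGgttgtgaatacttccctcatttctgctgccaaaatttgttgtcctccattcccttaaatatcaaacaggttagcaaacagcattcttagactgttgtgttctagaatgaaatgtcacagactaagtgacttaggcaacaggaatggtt
Cux2: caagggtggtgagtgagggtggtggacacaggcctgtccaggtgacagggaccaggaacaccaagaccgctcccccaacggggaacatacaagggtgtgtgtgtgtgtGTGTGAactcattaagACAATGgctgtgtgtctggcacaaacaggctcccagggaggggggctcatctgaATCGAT

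The Fezf2 stretch lies at chr14:12345960-12346115 on the minus strand and held none of these letters. The Sox5 stretch, at chr6:143947107-143947356 on the minus strand, held 1 SOX match, a motif found in 25.2% of the 32851 promoter windows of the same 250 bases. The Cux2 stretch, at chr5:122047892-122048075 on the minus strand, held 1 T-box match at the end of a GT repeat, 1 SOX match and 1 CUX match. A further Cux2 entry, at chr5:122049852-122050101 by the upstream end of the Cux2 span (chr5:121856366-122050102), had 1 SOX match and is not shown. Each stretch shown lies inside the GENCODE span of its gene (chr14:12342094-12348189 for Fezf2, chr6:143828425-144781977 for Sox5). The starts that these stretches precede are therefore internal to the spans. The T-box letters occurred in 12.3% of all windows and the CUX letters in 0.728%. These matches are letters in a sequence, and no binding was measured.

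Fezf2, a zinc finger factor required for neurons that project to the spinal cord and brainstem, had its highest level in Cluster 4, at 77.7 ± 13.7 CPM (SD, n = 11 embryos). Cluster 16 followed with 68.0 ± 17.1 CPM (n = 11), within the spread of Cluster 4, and Cluster 1 with 39.7 ± 5.80 CPM, beyond the spread of Cluster 16. RGC Cluster 2 and IPC Clusters 6 and 17 held 30.9, 34.2 and 32.3 CPM, so the gene was already present in progenitors, and interneuron Cluster 23 was lowest with 3.58 CPM. After each nucleus was thinned to 2000 UMIs, 14.9% of Cluster 4 nuclei had a Fezf2 UMI, against 0.798% in Cluster 5, the migrating interneurons. With all UMIs these shares were 47.5% and 4.07%, at median depths of 9236 and 6652 UMIs per nucleus. The gene covers chr14:12342094-12348189 (GRCm38, minus strand).

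Bcl11b, a zinc finger factor needed for the axons of corticospinal neurons and for striatal neurons, was highest outside the cortical lineage. Cluster 11, the striatal neurons, held 1907 ± 125 CPM (n = 11), above the next cluster, interneuron Cluster 18 with 1237 ± 130.5 CPM, by more than their spread. Among PN, Cluster 4 held 1200.2 ± 167 CPM and Cluster 1 held 1139 ± 151 CPM, a difference within their spread, while RGC Cluster 2 was lowest with 136 CPM. Bcl11b UMIs were found in 85.1% of the thinned nuclei of Cluster 4, in 80.1% of those of Cluster 1 and in 13.9% of those of Cluster 2. The gene lies at chr12:107910403-108003602 on the minus strand.

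Tbr1, a T-box factor of early-born and corticothalamic neurons, was high in most PN clusters and in Cajal-Retzius cells. Its level was 101 ± 29.1 CPM in Cluster 24 (n = 10), 96.1 ± 10.7 CPM in Cluster 4 (n = 11), 87.9 ± 11.6 CPM in Cluster 14, the Cajal-Retzius cells, and 82.1 ± 13.54 CPM in Cluster 22. No 2 neighbours among these 4 differed beyond their spread. RGC Cluster 2 held 7.42 CPM and IPC Cluster 6 held 40.2 CPM. In Cluster 4, 18.05% of thinned nuclei had a Tbr1 UMI, against 1.80% in Cluster 5. The gene lies at chr2:61802930-61814114 on the plus strand.

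Sox5, an SRY-box factor that controls the order in which deep-layer subtypes arise, was highest in Cluster 4. That cluster held 9103 ± 382 CPM (n = 11), Cluster 1 held 5653 ± 464 CPM, Cluster 16 held 5259 ± 796 CPM and Cluster 22 held 5126 ± 566 CPM. The first step exceeded the spread, the next 2 did not, and the step from Cluster 22 down to Cluster 9 (2567 ± 136 CPM) did. Within each of the 11 embryos, Sox5 was higher in Cluster 4 than in Cluster 1, by 0.69 ± 0.08 on the log2(CPM + 1) scale (SD). After thinning, the share of nuclei with a Sox5 UMI ran from 38.8% in Cluster 24 to 99.9% in Cluster 4 among PN, and was 34.6% in Cluster 11. Sox5 spans 954 kb (chr6:143828425-144781977, minus strand), and 4 antisense genes with counts in the tables lie across from it.

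Tle4, a corepressor of the Groucho family found in corticothalamic neurons, had its highest level in an interneuron cluster. Interneuron Cluster 13 held 703 ± 99.4 CPM (n = 11) and Cluster 4 held 683 ± 226 CPM, a difference within their spread. Callosal Cluster 1 held 157 ± 16.4 CPM and Cluster 16, the caudal subcortical PN, 186 ± 16.99 CPM. Cluster 4 exceeded Cluster 1 in all 11 embryos, by 2.01 ± 0.74 on the log2(CPM + 1) scale. Of the thinned nuclei of Cluster 4, 50.6% had a Tle4 UMI, against 14.3% in Cluster 5. The gene lies at chr19:14448150-14598051 on the minus strand.

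Zfpm2, a cofactor of GATA proteins that is known from corticothalamic neurons, was highest in the subcortical clusters. Its level was 3010.1 ± 492 CPM in Cluster 16, 2241 ± 229.5 CPM in Cluster 4 (both n = 11) and 1323 ± 331 CPM in Cluster 25 (n = 7), and each of these steps exceeded the spread. Cluster 1 held 795 ± 341 CPM, and interneuron Cluster 13 was lowest with 125 ± 74.7 CPM. Thinned nuclei with a Zfpm2 UMI made up 77.3% of Cluster 16 and 24.1% of Cluster 5. Cluster 16 exceeded Cluster 4 in all 11 embryos for Zfpm2, whereas Cluster 4 exceeded Cluster 16 in all 11 for Tbr1, Tle4, Sox5 and Bcl11b. The gene lies at chr15:40655035-41104592 on the plus strand.

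The upper-layer factors ran the other way. Cux1, a cut homeobox factor, was highest in progenitors and interneurons, with 875 ± 55.1 CPM in Cluster 3, the interneuron precursors, and 807 ± 33.6 CPM in Cluster 5, and it was lowest in Cluster 4 with 86.7 ± 16.4 CPM (all n = 11). Its paralog Cux2 was highest in Cluster 5 with 771 ± 111 CPM and in the early PN of Cluster 9 with 688 ± 101 CPM, and lowest in Cluster 4 with 26.1 ± 7.04 CPM. Cluster 4 was below Cluster 1 in all 11 embryos, with a difference in log2(CPM + 1) of -1.98 ± 0.52 for Cux1 and -3.49 ± 0.48 for Cux2. The thinned share with a UMI was 11.5% in Cluster 4 and 78.5% in Cluster 3 for Cux1, and 3.55% in Cluster 4 and 60.7% in Cluster 9 for Cux2.

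Pou3f2, a POU-domain factor that acts in late progenitors and upper-layer neurons, peaked in progenitors as well. Cluster 3 held 103 ± 16.2 CPM and Cluster 12, the non-mitotic RGCs, 86.1 ± 14.6 CPM, a step that just exceeded their spread, and IPC Cluster 17 held 76.1 ± 21.2 CPM (all n = 11). The early PN of Cluster 9 held 52.9 ± 18.9 CPM and Cluster 4 held 10.7 ± 3.60 CPM. Cux1, Cux2 and Pou3f2 lie at chr5:136248135-136567490, chr5:121856366-122050102 and chr4:22482780-22488366, all on the minus strand. Over all 9 genes, 24 of the 216 steps between neighbouring clusters in a gene's order exceeded the larger SD between embryos of the pair. Within embryos smaller steps could keep a direction, as with Fezf2, lower in Cluster 16 than in Cluster 4 in 9 of 11 embryos, and Bcl11b, higher in Cluster 4 than in Cluster 1 in 9 of 11.

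**Figure D1:**
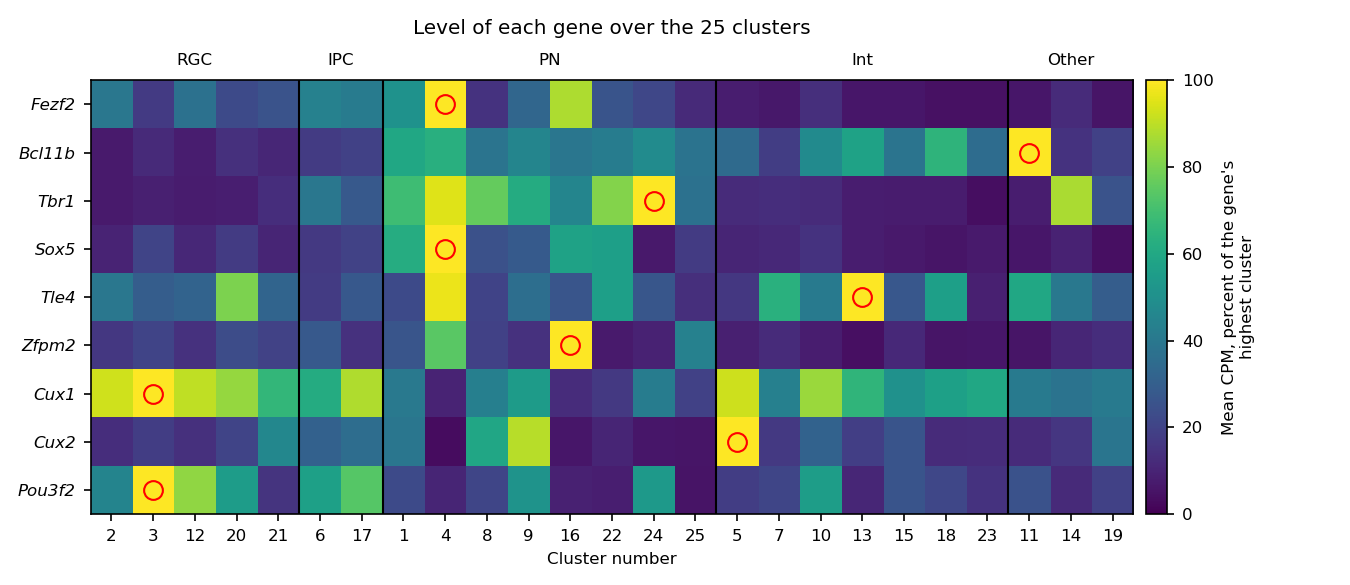
Mean CPM of each gene (rows) in each cluster (columns, grouped by the authors' major cell types), as a percentage of that gene's highest cluster, which is circled. Fezf2 and Sox5 peak in Cluster 4, where Cux1 and Cux2 are lowest, and Bcl11b peaks in Cluster 11.

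The genes whose mean levels followed each factor most closely over the 25 clusters were found by Pearson's r of log2(mean CPM + 1) among 11621 genes with at least 10 CPM in some cluster. This is a description over 25 points that share the same libraries. Nearest to Pou3f2 were its relative Pou3f3 (r = 0.92) and Pantr1, a noncoding gene beside Pou3f3 (r = 0.92). Nearest to Tbr1 was Cacna2d1, a calcium channel subunit (r = 0.90), nearest to Fezf2 was Nfix, a nuclear factor I gene (r = 0.88), and nearest to Sox5 was Arhgap29 (r = 0.88). Bcl11b was closest to Mir124a-1hg, the host gene of a neuronal microRNA (r = 0.87), Zfpm2 to Nsmf (r = 0.78) and Tle4 to Lrmda (r = 0.62). Nearest to Cux1 and Cux2 were Gm16599 (r = 0.99) and Gm3970 (r = 0.97), which GENCODE places antisense within the same loci. The strand used in counting is not stated in the paper. Cux1 and Gm16599, and Cux2 and Gm3970, were counted as separate genes. Whether reads of one gene were counted for the other was not tested. All Cux1 and Cux2 values given here, as well as this likeness, carry that limit.

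Within Clusters 1 and 4, the factors were also compared nucleus by nucleus after thinning to 2000 UMIs, as the share of nuclei with UMIs of 2 genes against the product of the single shares. Cux2 and Bcl11b met in 23.6 ± 3.14% of Cluster 1 nuclei (SD, n = 11) against a product of 25.7 ± 3.32%, below it in all 11 embryos. In Cluster 4 they met in 2.76 ± 1.05% of nuclei against 3.03 ± 0.98%, above the product in 2 of 11 embryos.

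Among pairs of deep-layer factors in Cluster 4, Fezf2 and Bcl11b were found together in 13.3 ± 3.19% of nuclei against 12.7 ± 3.16%, above the product in 9 of 11 embryos. Fezf2 and Tbr1 met in 3.08 ± 1.49% against 2.73 ± 0.95% in Cluster 4, above in 8 of 11, and in 0.714 ± 0.454% against 0.856 ± 0.218% in Cluster 1, above in 4 of 11. Tbr1 and Bcl11b met in 15.5% of Cluster 4 nuclei against 15.4%, and in 10.4% of Cluster 1 nuclei against 10.1%. Sox5 and Tle4 met in 50.6% of Cluster 4 nuclei against 50.5%, as nearly every nucleus there had a Sox5 UMI. None of these departures from the product was tested.

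To ask whether EtOH changed the 9 factors, embryos of the 2 treatments were compared in each cluster by edgeR's quasi-likelihood test over all genes, with a call at a Benjamini-Hochberg adjusted p under 0.05 and a fold below 0.8 or above its inverse. Of 205 tests of these genes, 2 were called, Zfpm2 in Cluster 13 and Cux1 in Cluster 16, both lower after EtOH. Over all genes 0.792% of tests were called, and 0.35% were called lower, so 2 of 205 lies near the background. The other 20 combinations of a gene and a cluster had too few counts to be tested.

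Zfpm2 in interneuron Cluster 13 (Int 2) had 202, 238, 141, 255 and 119 CPM in saline embryos S1-1, S1-2, S2-1, S2-2 and S2-4. The 6 EtOH embryos had 48.1, 68.3 and 102 CPM as their lowest, median and highest values. The groups did not overlap, and the lowest saline embryo was S2-4. The log2 fold change was -1.49 (SE 0.23, edgeR adjusted p = 0.0139), a fold of 0.356, and without S2-4 it was -1.64 (SE 0.17, adjusted p = 7.14e-06). Within batch 1 the log2 ratio of the means was -1.55, and within batch 2 it was -1.35. In Cluster 13, 81 of 8158 genes (0.993%) were called and the groups did not overlap for 1.63%.

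This was the cluster with the lowest Zfpm2 level of all 25, and Cluster 16 held 3010.1 CPM of the gene. The 5 PN markers were all detected in Cluster 13 and summed to 55.6 to 114 CPM in saline and 34.2 to 99.3 CPM in EtOH embryos. On average 4 of 5 were lower after EtOH. Of 8 RGC markers 6 were lower (mean sums of 277 and 261 CPM). Of 4 IPC markers 3 were lower (31.5 and 31.3 CPM), and of 4 striatal markers 2 (375 and 378 CPM). Their part in the result was not tested. The call was lost without S1-1, without E2-1 and without E2-2, with log2 fold changes of -1.45, -1.46 and -1.52, and it was kept with counts summed per dam (-1.5, SE 0.18, adjusted p = 0.00319).

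Cux1 in Cluster 16, the caudal subcortical PN, had 139, 126, 192, 159.8 and 106 CPM in S1-1, S1-2, S2-1, S2-2 and S2-4. The EtOH embryos had a lowest value of 62.5, a median of 85.4 and a highest of 115 CPM. Only EtOH embryo E1-1, at 115 CPM, lay above a saline embryo, S2-4. In Cluster 16, 45 of 8509 genes (0.529%) were called. The log2 fold change was -0.80 (SE 0.15, edgeR adjusted p = 0.0336), and -0.91 (SE 0.14, adjusted p = 0.000188) without S2-4. Within batches the log2 ratios of the means were -0.56 and -0.93.

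The Cux1 call was made in 10 of 21 settings and lost, among others, with thinning to 2000 UMIs (-0.76, adjusted p = 0.17), with counts summed per dam (-0.83, adjusted p = 0.0683) and without any of several single embryos. Its log2 fold change was -0.91 to -0.72 without single embryos. Markers of several cell types moved with it. All 6 interneuron markers were detected in Cluster 16. They summed to 86.2 to 340.5 CPM in saline (S2-4: 125) and 13.1 to 70.6 CPM in EtOH embryos, and 5 of 6 were lower on average. All 4 IPC markers were lower too (mean sums of 37.6 and 23.2 CPM), as were all 4 striatal (120 and 52.9 CPM) and all 4 Cajal-Retzius markers (156 and 80.7 CPM). Of 8 RGC markers 4 were lower (119 and 109 CPM), and of 5 PN markers 2. The 7 interneuron clusters held 381 to 807 CPM of Cux1, IPC clusters 538 to 770 CPM and RGC clusters 578 to 875 CPM. Their part in the result was not tested.

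By adjusted p alone, 4 of the 205 tests were under 0.05, against 0.869% of all tests, and 2 of these 4 had a fold inside the limits. Tle4 in callosal Cluster 1 had 186, 175, 168, 164 and 169.7 CPM in the saline embryos S1-1, S1-2, S2-1, S2-2 and S2-4. After EtOH the lowest, median and highest values were 136, 144 and 149 CPM. The groups did not overlap, as was so for 2.41% of genes there, while 3.88% of them all had an adjusted p under 0.05, and S2-2 was the lowest saline embryo. The log2 fold change was -0.31 (SE 0.06, edgeR adjusted p = 0.0205), a fold of 0.804. It was -0.34 without S2-4 (adjusted p = 0.000541), -0.23 after thinning (adjusted p = 0.259) and -0.34 with counts summed per dam (adjusted p = 0.176). The 6 interneuron markers summed to 64.7 to 198 CPM in saline (S2-4 lowest) and 49.8 to 109 CPM in EtOH embryos in Cluster 1, all 6 lower on average, and their part in the result was not tested.

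Cux2 in Cluster 5, the migrating interneurons, moved upward. Saline embryos S1-1, S1-2, S2-1, S2-2 and S2-4 had 609.5, 686, 617, 695 and 751 CPM, against 789, 844 and 941 CPM as the lowest, median and highest of EtOH. The groups did not overlap, as was so for 2.32% of genes there, while 2.29% of them all had an adjusted p under 0.05, and the highest saline embryo was S2-4. The log2 fold change was 0.30 (SE 0.07, edgeR adjusted p = 0.0412), a fold of 1.23. It was 0.32 without S2-4 (adjusted p = 0.00408), 0.35 after thinning (adjusted p = 0.0354) and 0.29 with counts summed per dam (adjusted p = 0.301). The 5 PN markers in Cluster 5 summed to 90.4 to 144 CPM in saline and 59.5 to 111 CPM in EtOH embryos, all 5 lower on average, and their part was not tested.

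**Figure D2:**
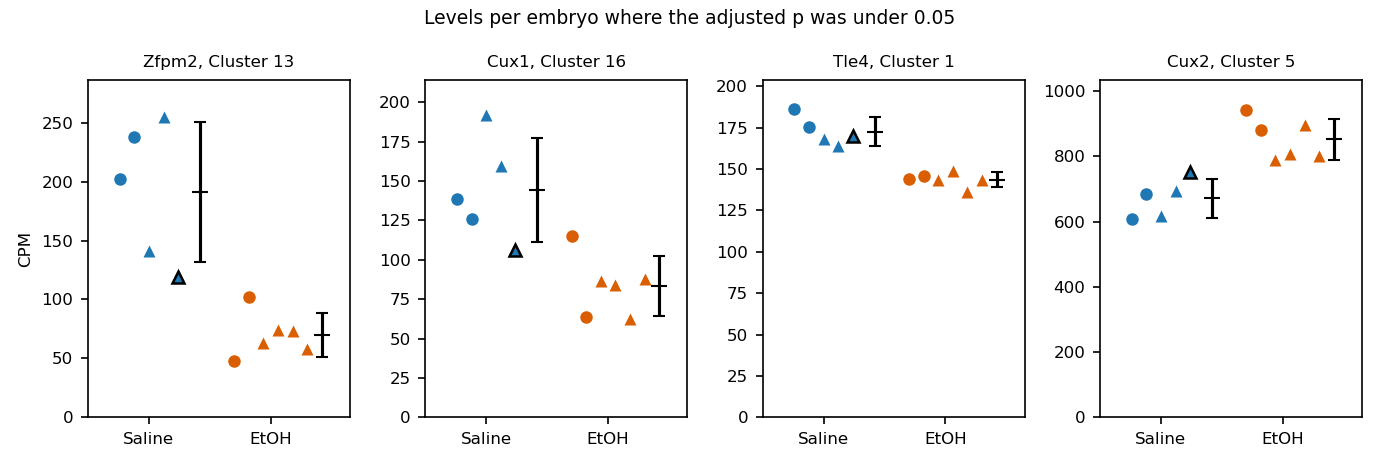
CPM per embryo (y axis, from 0) of the 4 results with an adjusted p under 0.05, for saline (blue) and EtOH (orange), with circles for batch 1, triangles for batch 2, a black outline for S2-4, and the mean with its SD in black. Groups do not overlap for Zfpm2, Tle4 and Cux2, and for Cux1 EtOH embryo E1-1 lies above S2-4.

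Below the call limits, fold changes of 7 of the 9 factors lay mostly below 0, and those of Cux1 and Cux2 on either side of it. Of the 205 log2 fold changes, 157 (76.6%) were below 0, against 49.0% over all genes, and the median was -0.14 against 0.01. Without S2-4, 159 of 206 (77.2%) were below 0, with a median of -0.17. An unadjusted p under 0.05 was reached by 50 of the 205 (24.4%), against 17.4% of all tests, and 44 of these 50 (88.0%) were below 0, against 45.1% over all genes. These tests share embryos and are not independent, and the counts describe them without a test. Tle4 in Cluster 23, which passed the low-count filter through the saline embryos alone, is among the 157 and the 44. Markers of other cell types were lower too in some of these clusters. In Cluster 1 all 8 RGC markers were lower on average, with sums of 81.4 to 127.5 CPM in saline and 67.3 to 106 CPM in EtOH embryos, as were all 6 interneuron markers there, and all 5 PN markers in Cluster 5. Other sums rose on average. RGC markers in Cluster 4 went from 152 CPM in saline to 164 CPM in EtOH embryos, with 5 of 8 lower. Cajal-Retzius markers in Cluster 5 went from 267 to 326 CPM, with 0 of 4 lower. The part of all these markers in the direction of the factors was not tested. Bcl11b was below 0 in 24 of 25 clusters (median -0.22), Fezf2 in 15 of 16 (median -0.36), Tbr1 in 16 of 18 (median -0.21), Zfpm2 in 22 of 25 (median -0.46) and Pou3f2 in 18 of 21 (median -0.38). Sox5 and Tle4 were each below 0 in 19 of 25 (medians -0.10 and -0.16). Cux1 was below 0 in 14 of 25 and Cux2 in 10 of 25, with medians of -0.01 and 0.10.

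Besides Cluster 13, Zfpm2 had low fold changes in several clusters. Its log2 fold change was -1.71 (SE 0.56, edgeR adjusted p = 0.254) in Cluster 23, -1.10 (SE 0.23, adjusted p = 0.0503) in PN Cluster 24 and -0.96 (SE 0.28, adjusted p = 0.117) in striatal Cluster 11. Without S2-4 it was -0.998 (adjusted p = 0.0572) in Cluster 24 and -1.03 (adjusted p = 0.0623) in Cluster 11. In Cluster 18 it was -0.93 (SE 0.25, adjusted p = 0.168) with all embryos. Some other settings called these results and most did not. Cluster 24 was called in 5 of 21 settings, among them DESeq2 (adjusted p = 0.00914) and counts summed per dam (edgeR adjusted p = 0.00888), but not after thinning (adjusted p = 0.682) or with the replicate block (adjusted p = 0.086). Cluster 11 was called in 3 of 21, among them thinning to 2000 UMIs (log2 fold change -1.17, edgeR adjusted p = 2.91e-05), but not with counts summed per dam (adjusted p = 0.243) or with batch as a covariate (adjusted p = 0.164). Cluster 18 was called in 3 of 21 settings and Cluster 23 in 1 of 20, counts summed per dam (-1.68, edgeR adjusted p = 0.0242). In the subcortical PN of Cluster 4, where it is abundant, saline embryos S1-1, S1-2, S2-1, S2-2 and S2-4 had 2418, 2254, 1850.1, 2334 and 1996 CPM of Zfpm2 and EtOH embryos 1935 to 2543 CPM with a median of 2321. Those groups overlapped throughout, and the log2 fold change was 0.06 (SE 0.09, edgeR adjusted p = 0.751). In Cluster 24, 7 of 8 RGC markers were lower, with mean sums of 98.5 CPM in saline (S2-4: 226) and 34.9 CPM in EtOH embryos. Lower there too were 4 of 5 PN markers. Of 4 IPC markers 2 were lower, with mean sums of 89.4 CPM in saline and 89.9 CPM in EtOH embryos. RGC clusters held 429 to 704 CPM of Zfpm2. Cajal-Retzius markers in Cluster 24 summed to 2417 CPM in saline and 1898 CPM in EtOH embryos, above its PN markers at 577 and 400 CPM. Nearly all of that sum was Reln, at 2389 and 1872 CPM. Trp73 (5.65 and 7.59 CPM) and Lhx5 (2.23 and 5.34 CPM) were scarce and higher after EtOH, while Ebf3 was scarce and lower. The part of these markers in the Zfpm2 result was not tested.

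Without the library labelled S2-4, calls rose from 2 to 14 for these genes, all below 0, while the share of all tests called rose to 8.78%. The share of all tests called lower rose from 0.35% to 2.61%. Every saline library left had a higher median depth per nucleus than any EtOH library. The part of depth in these calls was not tested. The additional calls were Fezf2 in Clusters 2, 4 and 6, Tle4 in Clusters 1, 5, 6 and 23, Pou3f2 in Clusters 8, 10 and 11, Sox5 in Cluster 23 and Zfpm2 in Cluster 12. Tle4 in Cluster 23 passed the low-count filter through the saline embryos alone, so that call only describes its counts. Fezf2 in Cluster 4 had 75.1, 88.1, 87.6, 102 and 72.7 CPM in S1-1, S1-2, S2-1, S2-2 and S2-4, and 58.1, 69.3 and 94.6 CPM as the lowest, median and highest of EtOH. Among saline embryos S2-4 was the lowest here too, and the groups overlapped. For Fezf2 there, the log2 fold change was -0.28 (SE 0.11, edgeR adjusted p = 0.169) with S2-4 and -0.34 (SE 0.11, adjusted p = 0.0445) without it.

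Tle4 in the migrating interneurons of Cluster 23 rested on few counts. Saline embryos S1-1, S1-2, S2-1, S2-2 and S2-4 held 85, 23, 79, 11 and 17 UMIs of Tle4 there, or 105, 75.7, 255, 60.2 and 52.1 CPM, and the 5 EtOH embryos with at least 10 nuclei held 0 to 8 UMIs, or 0 to 34.4 CPM. The groups did not overlap, as was so for 2.12% of genes there, and S2-1 was far above the rest. Fitted over these 10 embryos, the log2 fold change was -2.57 (SE 0.63, edgeR adjusted p = 0.131), so this was not called. Tle4 passed the low-count filter there through the saline embryos alone, where it was high. The fold changes and p-values of Tle4 in Cluster 23 therefore only describe these counts. Without S2-4 the log2 fold change was -2.75 (edgeR adjusted p = 0.0286), without S2-1 -2.07 (edgeR adjusted p = 0.0379), and DESeq2 gave -2.67 (adjusted p = 0.00284). In Cluster 23 the 5 PN markers summed to 49.0 to 93.9 CPM in saline and 24.1 to 85.9 CPM in EtOH embryos, 4 of 5 lower on average, and the 8 RGC markers to 224 to 345 and 202 to 294 CPM, 6 of 8 lower. Of the 4 IPC markers 3 were lower, and of the 3 thalamic markers 2, with Tcf7l2 at a mean of 38.8 CPM in saline and 8.25 CPM in EtOH embryos. Their part in the Tle4 result was not tested.

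**Figure D3:**
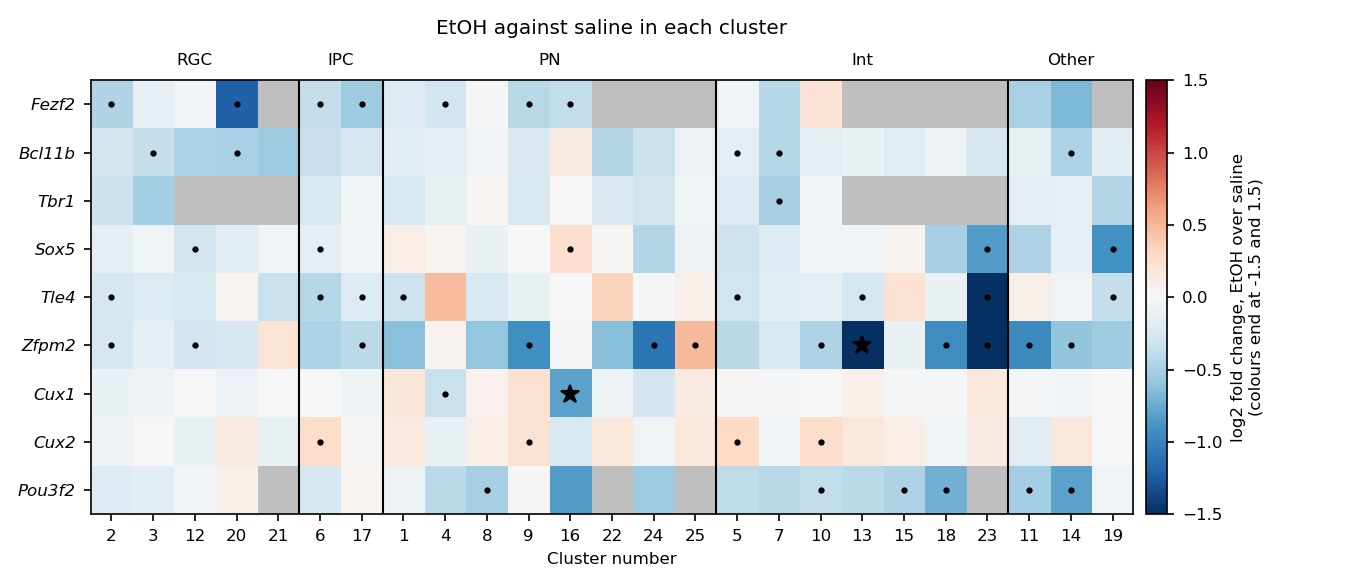
Log2 fold change of EtOH over saline for each gene (rows) in each cluster (columns), with blue below 0, red above 0 and grey not tested. Stars mark the 2 calls and dots an unadjusted p under 0.05, and the rows of Fezf2, Bcl11b, Zfpm2 and Pou3f2 are mostly blue.

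In the 8 PN clusters summed, none of the 9 factors was called, while 954 of 14604 genes (6.53%) were. For these 9 genes there were 0 calls with DESeq2 and 0 unadjusted p-values under 0.05 with edgeR. Fezf2 had 41.4, 42.3 and 58.6 CPM as the lowest, median and highest saline values and 34.1, 39.5 and 51.9 CPM after EtOH, and the groups overlapped. Its log2 fold change was -0.21 (SE 0.12, adjusted p = 0.251). Sox5 was at 5104 ± 347 CPM in saline (n = 5) and 5684 ± 217 CPM in EtOH embryos (n = 6), for a log2 fold change of 0.11 (SE 0.06, adjusted p = 0.247).

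For Pou3f2 the summed PN gave a log2 fold change of -0.36 (SE 0.25, adjusted p = 0.335), with log2 ratios of the means of -0.92 and -0.02 within batches 1 and 2. Bcl11b was at -0.14 (SE 0.09), Tbr1 at -0.13 (SE 0.08), Zfpm2 at -0.10 (SE 0.13), Tle4 at 0.27 (SE 0.21), Cux1 at -0.03 (SE 0.12) and Cux2 at 0.01 (SE 0.11). The antisense gene Gm16599 was at 55.0 ± 22.2 CPM in saline and 91.5 ± 15.2 CPM in EtOH embryos (log2 fold change 0.69, edgeR adjusted p = 0.0589). In Cluster 16, where Cux1 was called lower, Gm16599 was at 24.8 ± 11.2 CPM in saline and 27.1 ± 8.44 CPM in EtOH embryos. Its log2 fold change there was 0.04 (edgeR adjusted p = 0.993). Cluster 4 made up 22.2 ± 2.76% of PN nuclei in saline and 25.9 ± 2.91% in EtOH embryos (SD, n = 5 and 6). Log2 ratios of the mean summed CPM, without a fit, were -0.16 for Fezf2, -0.09 for Bcl11b, -0.09 for Tbr1 and 0.16 for Sox5. They were 0.02 for Cux1, 0.06 for Cux2, -0.33 for Pou3f2, 0.33 for Tle4 and -0.06 for Zfpm2. With cluster shares held fixed, the log2 ratios of the means were -0.24 for Fezf2, -0.11 for Bcl11b, -0.12 for Tbr1, 0.09 for Sox5, 0.13 for Cux1, 0.19 for Cux2, -0.18 for Pou3f2, 0.23 for Tle4 and -0.18 for Zfpm2. Without S2-4 the fitted log2 fold changes ran from -0.42 for Pou3f2 to 0.34 for Tle4, with Fezf2 at -0.27. Leaving out each embryo in turn gave ranges of 0.14 to 0.42 for Tle4, -0.18 to -0.017 for Zfpm2, -0.19 to -0.070 for Bcl11b, -0.18 to -0.072 for Tbr1, -0.50 to -0.24 for Pou3f2 and -0.29 to -0.14 for Fezf2.

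The spread among saline embryos was wide for some factors in PN. In Cluster 4, Tle4 had 838, 690.0, 270.0, 229 and 743 CPM in S1-1, S1-2, S2-1, S2-2 and S2-4, and 662, 807 and 908 CPM as the lowest, median and highest of EtOH. S2-1 and S2-2 of dam S2 were far below the other 9 embryos, and their litter mate S2-4 was not. Between treatments the log2 fold change was 0.47 (SE 0.35, edgeR adjusted p = 0.487), and the log2 ratio of the means was -0.06 in batch 1 and 0.98 in batch 2. Cux1 in Cluster 1 was lowest in the same embryos, with 233 and 189 CPM in S2-1 and S2-2 and 284 CPM as the lowest of the other 9.

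Zfpm2 in Cluster 1 went the opposite way. S2-1 and S2-2 had 1089 and 1517 CPM of it, above the other saline embryos (676 to 790.4 CPM) and all EtOH embryos (212 to 1003 CPM). Between treatments the log2 fold change was -0.62 (SE 0.38, edgeR adjusted p = 0.353), with a log2 ratio of 0.25 in batch 1 and -1.10 in batch 2. In Cluster 9 the same embryos held 606 and 1059 CPM, against 364 to 440.1 CPM in the other saline embryos and 174 to 439 CPM after EtOH.

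**Figure D4:**
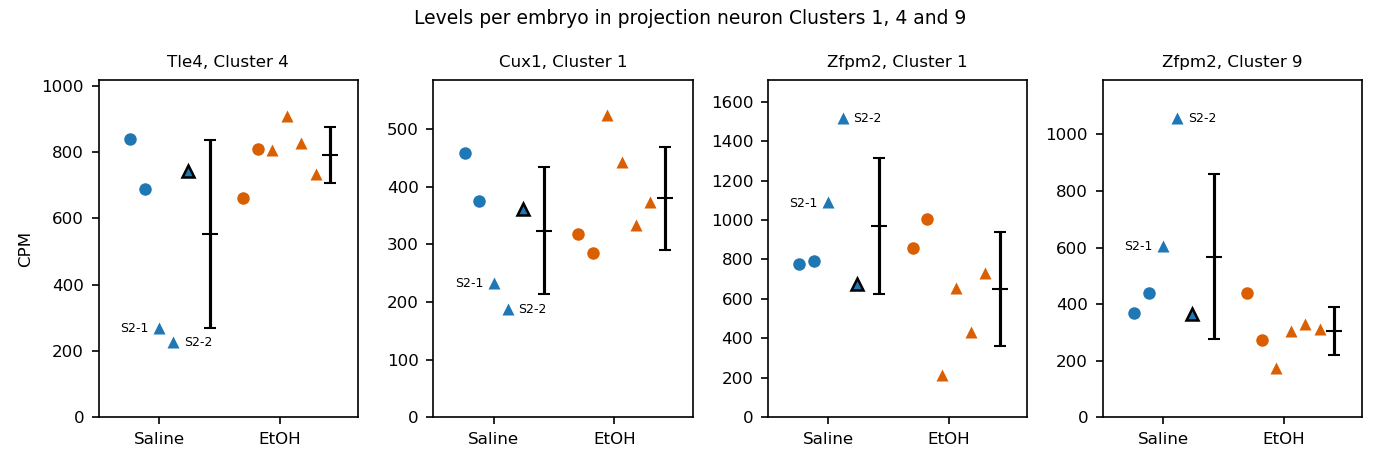
CPM per embryo (y axis, from 0) of Tle4 in Cluster 4, Cux1 in Cluster 1 and Zfpm2 in Clusters 1 and 9, with saline in blue, EtOH in orange, circles for batch 1, triangles for batch 2, a black outline for S2-4, and the mean with its SD in black. Saline embryos S2-1 and S2-2 are the lowest 2 for Tle4 and Cux1 and the highest 2 for Zfpm2.

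Whether EtOH acted differently on rostral subcortical PN (Cluster 4) and callosal PN (Cluster 1) was tested as an interaction with the embryo as a block. None of the 9 factors was called by edgeR, and of all genes 1 of 11733 (0.00852%) was. Tle4 had the largest difference between the clusters, with a log2 fold change 0.90 higher in Cluster 4 (SE 0.36, unadjusted p = 0.0317, adjusted p = 0.641), and Cux1 was 0.58 lower there, at -0.58 (SE 0.25, unadjusted p = 0.0459, adjusted p = 0.69). For Fezf2, Bcl11b and Tbr1 the differences were -0.13 (SE 0.10), 0.00474 (SE 0.0574) and 0.06 (SE 0.12). Zfpm2 was at 0.72 (SE 0.39, adjusted p = 0.739), Pou3f2 at -0.37 (SE 0.23), Cux2 at -0.28 (SE 0.25) and Sox5 at -0.08 (SE 0.06). Without S2-4 the difference was 1.06 for Tle4 and 0.81 for Zfpm2, and 0 factors were called.

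The share of PN nuclei with a UMI was compared between treatments by a two-sided exact permutation test over all 462 splits of the 11 embryos, after thinning to 2000 UMIs. Across the 9 tests, only Zfpm2 had an unadjusted p under 0.05. Its share was 53.2, 48.4, 44.8, 62.7 and 44.2% in S1-1, S1-2, S2-1, S2-2 and S2-4. After EtOH it lay between 36.2 and 49.0%. The means were 50.7 ± 7.61% (n = 5) and 41.3 ± 4.26% (n = 6), an unadjusted exact p of 0.0216, or 0.00952 when labels were exchanged within batches. Highest by far was S2-2, without which the p was above 0.05, and EtOH embryo E1-2 overlapped the saline range. Without S2-4 the difference was -10.97 percentage points (exact p = 0.0143).

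For Fezf2 the thinned share was 8.24 ± 1.31% in saline and 7.08 ± 1.43% in EtOH embryos (exact p = 0.214), and for Tbr1 it was 14.995 ± 2.25% and 13.3 ± 1.66% (exact p = 0.186). The other 6 factors had differences in means of -2.68 percentage points (Cux1) to 1.27 (Tle4), with exact p-values of 0.134 to 0.777. Without thinning these were 28.7 and 21.5% for Fezf2 and 46.7 and 37.3% for Tbr1, and 7 of the 9 factors had an unadjusted exact p under 0.05. The median depth was 6325 to 9051 UMIs per nucleus in saline and 4072 to 6911 in EtOH libraries, and thinning removes that gap.

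**Figure D5:**
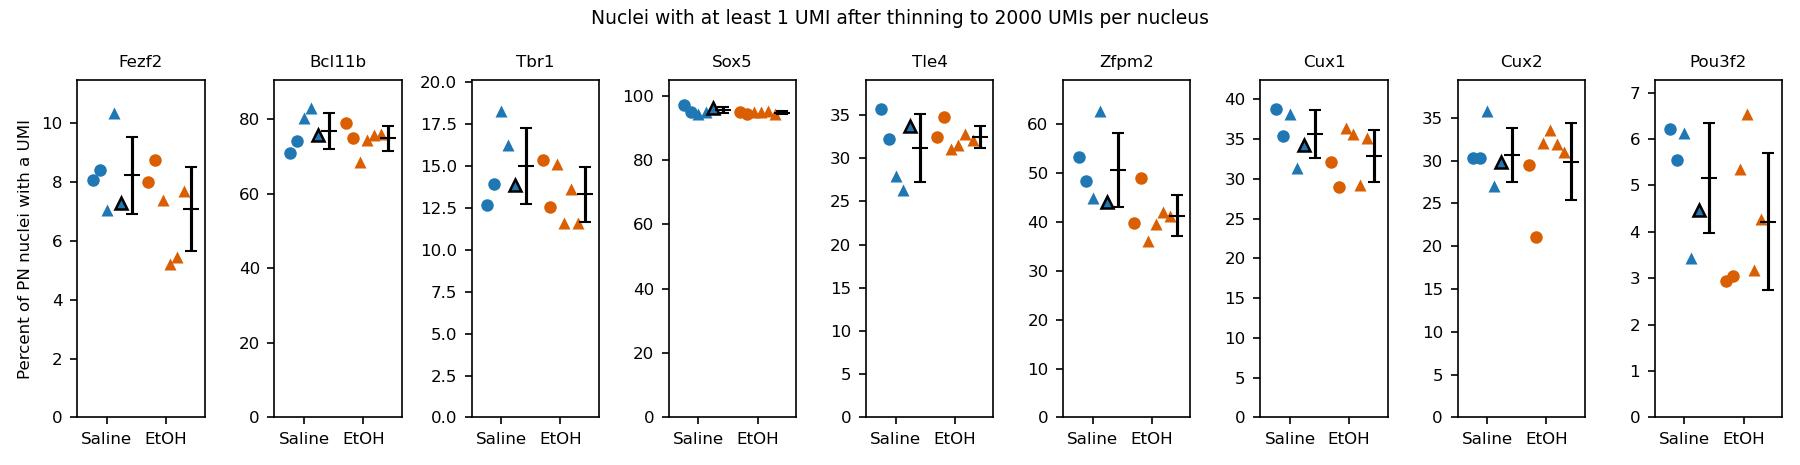
Percent of PN nuclei with at least 1 UMI of each gene after thinning to 2000 UMIs (y axes from 0, with a scale for each gene), per embryo, in saline (blue) and EtOH (orange), with circles for batch 1, triangles for batch 2, a black outline for S2-4, and the mean with its SD in black. The groups overlap for every gene, and the means lie furthest apart for Zfpm2.

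Other regulators of cortical excitatory neurons were taken from a list of 32 genes, of which 31 were in the tables. The list was chosen with earlier results of these data known, so its counts of calls are a description. Over the 25 clusters, 22 of 669 tests were called lower after EtOH and 0 higher, in 8 genes, against 0.35% of all tests called lower. The median log2 fold change of this list was -0.15, against 0.01 over all genes. Sox11, an SRY-box factor of newborn neurons, was lower in 7 clusters (log2 fold changes of -0.86 to -0.54), Zbtb18, a repressor needed for PN maturation, in 6 (-0.78 to -0.35), and Neurod2, a bHLH factor of PN, in 4 (-0.73 to -0.62). Neurog2 was lower in Cluster 1, Sox4 in Cluster 3, Foxp1 in Cluster 5, and Foxp2 and Rorb in Cluster 16. All 22 were called without S2-4 too. Leaving out any other single embryo kept 0 to 6 of the 22, with 0 without S1-1 or S1-2, and 9 were kept with counts summed per dam. Over all genes the calls in the 25 clusters went from 1721 to 89 without S1-1, 139 without E2-2 and 173 without E2-1, and to 19059 without S2-4.

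In the summed PN, 6 of 31 genes of this list were called, all lower, against 2.36% of all genes, namely Neurod2, Neurog2, Eomes, Emx2, Sox11 and Zbtb18. Neurod2 had 159.7 to 276 CPM in saline embryos, with S2-4 the lowest, and 141 to 159 CPM after EtOH. Its groups did not overlap, as was so for 3.27% of genes, and the log2 fold change was -0.68 (SE 0.12, edgeR adjusted p = 0.0235), or -0.80 without S2-4 (adjusted p = 7.17e-08). All 6 genes were called without S2-4, when 6.0% of all genes were called lower. No gene at all was called in the summed PN without S1-1, S1-2, S2-1, E2-2 or E2-3 (0 calls each), so these calls did not hold there, and with counts summed per dam 32 genes were called, 0 of them from this list. Eomes and Neurog2 mark IPCs, and Neurog2 was at 9.95 ± 1.00 CPM in saline and 6.27 ± 0.78 CPM in EtOH embryos. Of the 4 IPC markers, 3 were lower on average in the summed PN. Among them Btg2 moved little, from 10.5 to 9.55 CPM, and Insm1 was higher after EtOH, at 6.24 and 8.20 CPM.

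Of 15 listed family relatives of the 9 factors, 13 were in the tables and 12 were tested. This list too was chosen with earlier results of these data known. Over the clusters 6 of 193 tests were called, all lower, in Sox6 and Tle1, against 0.35% of all tests called lower, and in the summed PN 3 of 11 genes were (Sox6, Tle1 and Eomes), against 2.36% of all genes called lower there. Without S2-4 all 6 and all 3 were called too, and without any other single embryo 1 to 3 of the 6 were kept. With counts summed per dam 2 of the 6 and 1 of the 3 were kept. Sox6, a close relative of Sox5 known from progenitors and interneurons, fell by 1.34 on the log2 scale in Cluster 1 (SE 0.21, edgeR adjusted p = 0.0243), by 0.92 in Cluster 4 and by 0.63 in Cluster 9. In the summed PN it had 179 to 319 CPM in saline embryos, the lowest being S2-4, and 99.99 to 166 CPM after EtOH. Tle1, the relative of Tle4, fell by 0.49 in Cluster 4, by 0.41 in Cluster 5 and by 0.43 in Cluster 9. Interneuron markers in the summed PN stood at 105 to 225 CPM in saline and 59.1 to 115 CPM in EtOH embryos, lower on average for all 6, and their part in these results was not tested.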

How the data were processed

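UMI counts of 23513 genes, whole numbers without normalization, were deposited by the authors in 1 table for each of 11 embryos and 25 clusters. Per the methods, Cell Ranger with its default mm10 reference gave the counts. The authors then filtered nuclei and genes in Seurat, corrected for batch and dam with Harmony and clustered the nuclei. They removed 1 saline sample, a cluster of low counts, a thalamic cluster and the non-neuronal clusters. No doublet caller is named in the methods, and none was run here.

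Here counts were summed per embryo and cluster, pairs under 10 nuclei (9 of 275) were left out, and CPM were computed over all genes. Genes were tested with edgeR 4.0.16 (TMM, filterByExpr, robust quasi-likelihood fit, Benjamini-Hochberg adjustment over all genes of a fit) in R 4.3.3, with DESeq2 1.42.0 and limma 3.58.1 voom as alternatives, after a check on simulated counts. Python 3.11.15 was used for levels, thinning to 2000 UMIs (which left out 0.583% of saline and 1.04% of EtOH nuclei), exact permutation tests and plots. The spread of a value includes its counting error, and depths differ as given above.

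Sample numbers within dams did not pair the samples: over 5 same-numbered pairs, deviations from the group means correlated at -0.25 to 0.01. All 9 factors are covered in each comparison, where their counts allowed a test, by value, count or range, other listed genes are named where called, and for each factor the nearest of the 3 most similar genes. The factors, lists and tests were chosen with earlier results of these data known. Positions are from GENCODE M21 on GRCm38, and promoter sequences from RefSeq.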

Additional observations from a re-analysis of the deposited data

Results flagged for a closer look

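By Dixon's test, 3 samples stood apart from their group, among 66 groups of reported values, and chance flags about 1 in 20 groups. Cux2 in the summed PN was at 177 CPM in EtOH embryo E1-2, with the next EtOH embryo at 245 CPM. Tle4 in Cluster 23 was at 255 CPM in saline embryo S2-1, with the next at 105 CPM. Tbr1 in Cluster 4 was at 115 CPM in EtOH embryo E1-1, with the next at 92.8 CPM.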

How the results depend on the processing

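Over the 25 clusters 2 calls were made. The count was 7 with DESeq2, 18 without the low-count filter, 7 with counts summed per dam, 6 with voom and dam as a random block and 4 after thinning to 2000 UMIs, and leaving out single embryos gave 0 to 14. Calls over all genes moved as well, from 1721 to 5651, 10729, 2112, 6457 and 696 in those 5 settings in that order, and to between 89 and 19059 without single embryos. Tle4 in Cluster 23, whose p-values only describe its counts, was among the calls of these factors in 6 of 20 settings. In the summed PN and in the contrast of Clusters 4 and 1 no factor was called under any setting run. Without S1-1, S1-2, S2-1, E2-2 or E2-3 the count in the summed PN says nothing, since 0 of all genes were called there. Factors with an exact p under 0.05 for the share of PN nuclei numbered 1 at 2000 UMIs, 2 at 4000 UMIs, 7 without thinning and 0 to 2 without single embryos. In the summed PN, Cux1 (-0.03) turned to 0.0201 after thinning and ranged from -0.116 to 0.0439 without single embryos. Cux2 (0.01) turned to -0.00389 with DESeq2, -0.00358 with RLE factors, -0.0121 without the filter, -0.0112 with batch as a covariate, -0.083 with counts summed per dam and -0.00922 with voom, and ranged from -0.0472 to 0.0844 without single embryos. The cause was not tested.

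With batch and replicate number together as a block, 2 calls were made over 25 clusters (Zfpm2 in Cluster 13 and Tle4 in Cluster 23). The Tle4 call only describes its counts, as given above. Over all genes the block gave 470 calls against 1721. In the summed PN the block gave 0 calls of these factors, with Cux1 at 0.00892 and Cux2 at -0.0277, and 1 call over all genes against 954. Apart from their batch, the samples of a block share only a number within their dam. This block therefore also takes out differences between the batches.

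Depth limits the scarce genes: 20 combinations could not be tested, and every EtOH library held fewer UMIs in all than any saline library.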
